A study of Mus musculus with 4 samples.

Results

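The chemokine ligand genes examined here were 6 of the CC family (Ccl2, Ccl3, Ccl4, Ccl5, Ccl6 and Ccl9) and 4 of the CXC family (Cxcl2, Cxcl3, Cxcl10 and Cxcl16), 10 of the 43346 gene entries in the tables. They were found by their Ensembl identifiers and set between blood monocytes (MON) and blood neutrophils (NEU), with 2 libraries of total RNA from each cell type. Both groups came from peripheral blood of adult C57BL6 mice, which the study describes as male, and no mutant allele, treatment or agent is named for either. By the labels, the monocytes were Gr-1+Mac-1+ cells that were sorted out of the mononuclear layer of a Ficoll gradient. The study's methods give the monocyte gate differently, as Ly6g- and CD11b+ (another name of Mac-1). The neutrophils were recovered from the pellet once red cells had been lysed, and no sort is given for them. Nothing in the labels tells whether the 2 libraries of a type were made from separate animals, and p-values measure only the spread between these samples.

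Chemokines are small secreted proteins that direct the movement of leukocytes along a concentration gradient. They bind receptors of the G protein-coupled kind, CC ligands mostly those named Ccr and CXC ligands those named Cxcr. The families are told apart by the first cysteines of the protein, which are adjacent in CC ligands and separated by another residue in CXC ligands. Monocytes and neutrophils both follow chemokines and, when stimulated, release them.

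The expected counts, which are read numbers per gene as RSEM estimates them, summed to 20549572 to 26076261 per library. Monocyte marker genes summed to 15530 and 15060 CPM (counts scaled to a library total of 1000000) in MON and to 2336 and 2355 CPM in NEU. By the test described below, 13 of 14 were called higher in MON. The gene not called was Ly6c2, at 21.1 and 26.2 CPM in MON and 17.0 and 19.7 CPM in NEU. Neutrophil markers summed to 340.6 and 366.4 CPM in MON and to 7988 and 8174 CPM in NEU. Of these, 12 of 13 were called higher in NEU, and Retnlg was called higher in MON. Ly6g, which defines mouse neutrophils, had 0 counts in both MON libraries and 145 and 118 in NEU. Xist, a transcript of female cells, had 0 counts in both MON libraries and 5088 and 4878 in NEU, whereas Y-linked genes had counts in all 4 libraries. The NEU libraries therefore go against the description of the mice as male, and this difference cannot be told apart from cell type. The spread between the libraries of a group was larger in MON (biological coefficient of variation 45.6%) than in NEU (14.7%).

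The ligands fell into those with a large difference and those with little or no detected difference. Ccl3, Ccl4, Ccl5 and Ccl9 were 11.6-fold to 60.4-fold higher in MON. Ccl6, the most abundant of the 10 in both cell types, was 1.27-fold higher in MON. Of the 8 ligands that had enough counts to be tested, 5 were called higher in MON at an adjusted p under 0.05 (edgeR's quasi-likelihood test, adjusted over all 14309 tested genes), and all 5 were CC ligands. Over all tested genes, 20.8% were called higher in MON, 21.8% higher in NEU and 42.6% in either direction. None of the ligands was called higher in NEU, and 0 had an unadjusted p under 0.05 in that direction. DESeq2 and limma on log2(TPM + 1) also called 0 higher in NEU. In 7 of the 8 tested ligands both MON libraries lay above both NEU libraries, which 35.2% of all tested genes also showed. Of the ligands, 4 were both called and at least 8-fold higher in MON, a size that 3.49% of all tested genes reached. As a description, the median log2 fold change, MON over NEU, was 3.44 over the 8 tested ligands and -0.06 over all tested genes. These are bulk libraries, so fewer cells that transcribe a gene and less RNA per cell cannot be told apart. The MON libraries also held more RNA of NK cell markers, which summed to 2994 and 3033 CPM, against 40.2 and 40.9 CPM in NEU. B cell markers were higher in NEU, at 4687 and 4514 CPM, against 720.9 and 835.8 CPM in MON. The part of such other cells in the ligand levels was not tested.

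**Figure D1:**
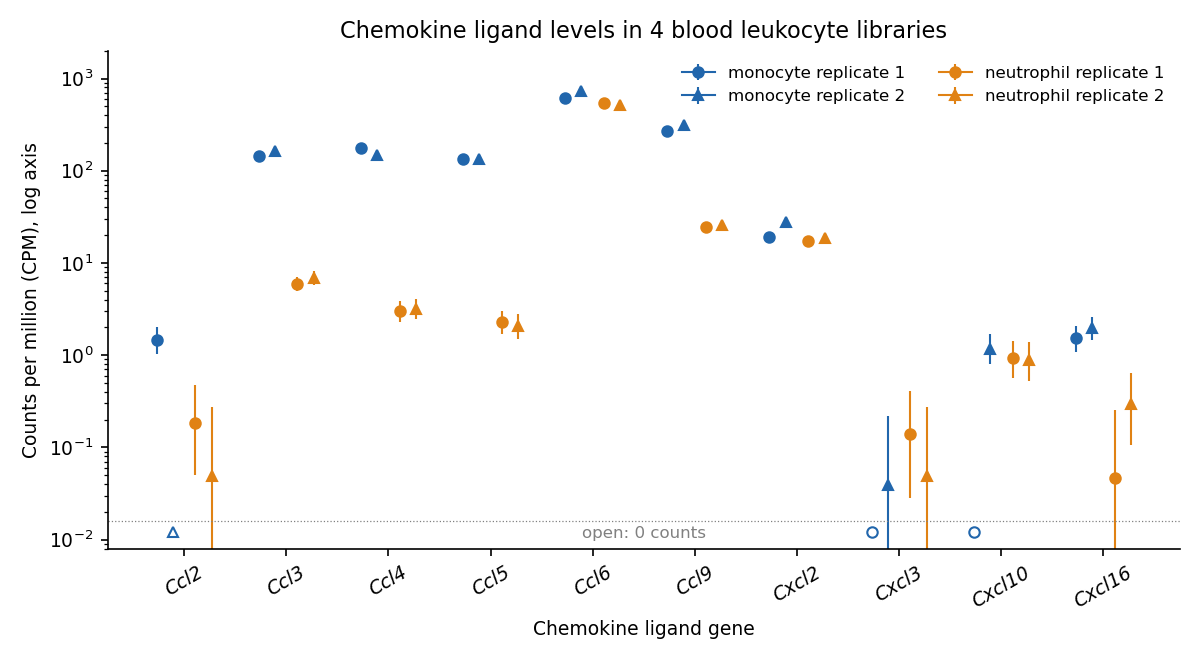
Level of each of the 10 ligand genes in CPM (log axis), with 1 symbol per library and a 95% Poisson interval for counting error, which is hidden by the symbol where narrow and cut off by the lower end of the axis for some genes with few counts. Open symbols mark 0 counts. The MON symbols of Ccl3, Ccl4, Ccl5 and Ccl9 lie over 10-fold above the NEU symbols, and those of Ccl6 and Cxcl2 lie close to them.

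Ccl3 (ENSMUSG00000000982.5; mm10, chromosome 11, 83647844 to 83649355) encodes MIP-1 alpha, a ligand of Ccr1. It had 3811 and 4168 counts in MON, against 129 and 142 in NEU. Every MON library was far above every NEU library. The levels were 155 ± 12.1 CPM in MON and 6.44 ± 0.67 CPM in NEU (SD, n = 2 each). The log2 fold change was 4.59 ± 0.14 (SE), which is 24.0-fold with a 95% interval of 18.7 to 30.8, at an edgeR adjusted p of 3.11e-05.

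Ccl4 (ENSMUSG00000018930.3; chromosome 11, 83662584 to 83664683) encodes MIP-1 beta, a chemoattractant of monocytes and lymphocytes. MON libraries held 4578 and 3791 counts of it and NEU libraries 65 and 65. The groups were again well separated, although the MON libraries were less alike for Ccl4 than is usual at that level. Their log2 difference was 0.24, where the median over 1947 tested genes of like level was 0.13. Ccl4 averaged 162 ± 19.2 CPM in MON and 3.08 ± 0.11 CPM in NEU. On the log2 scale the fold change was 5.71 ± 0.15, or 52.4-fold (40.2 to 68.2), at an edgeR adjusted p of 2.44e-05.

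Ccl5 (ENSMUSG00000035042.2; chromosome 11, 83525778 to 83530518) encodes RANTES, a ligand of Ccr1 and Ccr3 that T cells and NK cells are also known to make. Its counts were 3503 and 3392 in MON, against 50 and 43 in NEU. The MON libraries were closely alike, with levels of 134 ± 1.07 CPM, and both lay far above the NEU libraries at 2.20 ± 0.15 CPM. Ccl5 had the largest fold change of the tested ligands, 5.92 ± 0.13 on the log2 scale and 60.4-fold (47.9 to 76.3), at an edgeR adjusted p of 2.17e-05. The intervals of Ccl5 and Ccl4 overlap, and their order was not tested.

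Ccl9 (ENSMUSG00000019122.8; chromosome 11, 83572919 to 83578636) encodes MIP-1 gamma, a rodent chemokine that binds Ccr1. It had 7023 and 8037 counts in MON and 527 and 531 in NEU. The groups did not overlap, and the NEU libraries nevertheless carried more counts than for Ccl3, Ccl4 or Ccl5. The MON libraries differed by 0.22 on the log2 scale, where the median at that level was 0.11. In CPM the levels were 292 ± 32.1 in MON and 25.1 ± 1.05 in NEU. The log2 fold change was 3.54 ± 0.12, or 11.6-fold (9.41 to 14.4), at an edgeR adjusted p of 3.98e-05. In TPM, a level corrected for transcript length, the NEU libraries read 2.62 and 4.26 although their counts were nearly equal. The estimated effective length of Ccl9 there was 2086 and 1283 bases, against 1698 and 1611 in MON.

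Ccl6 (ENSMUSG00000018927.3; chromosome 11, 83587882 to 83593087), also a rodent chemokine and a ligand of Ccr1, departed from the other tested CC ligands in being abundant in both cell types. It had 16111 and 18529 counts in MON, against 11702 and 10653 in NEU. Scaled by library total, the levels were 672 ± 76.2 CPM in MON and 530 ± 15.9 CPM in NEU, and the groups did not overlap. Its log2 fold change was 0.34 ± 0.10, or 1.27-fold (1.06 to 1.51), with an edgeR adjusted p of 0.0424. The call was close to the threshold. The MON libraries differed by 0.23 on the log2 scale, where the median over genes of like level was 0.11. It ended without MON replicate 2 (log2 0.20, adjusted p 0.0628), without NEU replicate 1 (0.35, adjusted p 0.118) and without NEU replicate 2 (0.29, adjusted p 0.194). Over all alternatives the log2 value lay between 0.20 and 0.44, with adjusted p between 0.000955 and 1.0. A limma fit of log2(TPM + 1) gave a difference of 0.30 at an adjusted p of 0.135, and no call.

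Ccl2 (ENSMUSG00000035385.5; chromosome 11, 82035571 to 82037453) encodes MCP-1, a ligand of Ccr2 that draws monocytes out of the marrow. It had 38 and 0 counts in MON, against 4 and 1 in NEU. All the MON counts were in replicate 1, and the groups overlapped. It did not pass the filter on low counts. The ratio of the summed counts, scaled by the library totals, was 6.21, with a 95% counting interval of 2.44 to 20.2 that leaves out the spread between libraries. Without the filter, the edgeR log2 fold change was 2.56 at an adjusted p of 0.415.

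**Figure D2:**
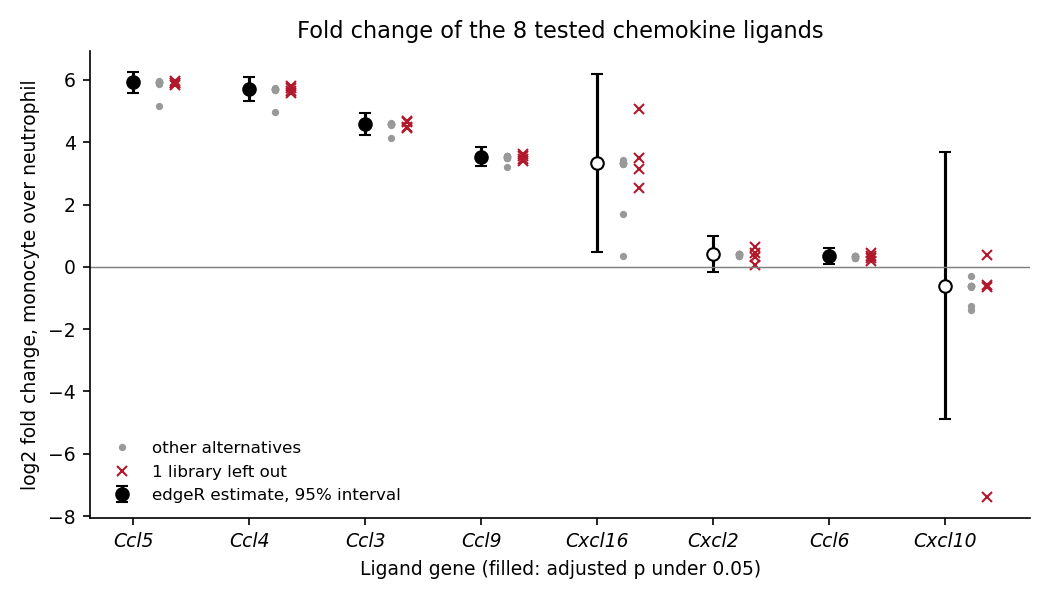
Log2 fold change, MON over NEU, of the 8 tested ligands. Black circles are the edgeR estimates with 95% intervals, filled where the adjusted p was under 0.05, grey dots are other processing settings and red crosses are fits with 1 library left out. Ccl5, Ccl4, Ccl3 and Ccl9 stay above 3 in every fit drawn, Ccl6 and Cxcl2 stay under 1, and Cxcl16 and Cxcl10 have wide intervals.

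Apart from Cxcl2, the CXC ligands were under 2 CPM in all libraries, and 0 of the 3 that were tested were called with edgeR. At an unadjusted p under 0.05 the count was 1 (Cxcl16). DESeq2 and limma on log2(TPM + 1) each called 1, also Cxcl16.

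Cxcl2 (ENSMUSG00000058427.7; chromosome 5, 90903871 to 90905938) encodes MIP-2, a ligand of Cxcr2 that draws neutrophils. It had 499 and 718 counts in MON, against 372 and 382 in NEU. At 23.6 ± 6.35 CPM in MON and 17.9 ± 0.99 CPM in NEU, the groups did not overlap, but the lower MON library lay only 1.03-fold above the higher NEU library. The log2 fold change was 0.40 ± 0.23 with an edgeR adjusted p of 0.223, and its 95% interval ran from -0.18 to 0.98. The MON libraries differed from each other by 0.56 on the log2 scale, where the median over genes of like level was 0.26. Without MON replicate 1 the value was 0.64 at an adjusted p of 0.0042, and without MON replicate 2 it was 0.07.

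Cxcl16 (ENSMUSG00000018920.7; chromosome 11, 70453983 to 70459984) encodes a ligand of Cxcr6 that is made as a membrane-bound protein and can be shed. It had 40 and 50 counts in MON, against 1 and 6 in NEU. Both MON libraries were above both NEU libraries. The levels were 1.75 ± 0.30 CPM in MON and 0.17 ± 0.17 CPM in NEU. Its fitted log2 fold change was 3.33 ± 1.15, with a 95% interval of 0.47 to 6.19 and an edgeR adjusted p of 0.0653. Across the alternatives the adjusted p of Cxcl16 ran between 0.0192 and 0.526, and 6 of the 17 gave a call.

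Cxcl10 (ENSMUSG00000034855.9; chromosome 5, 92346638 to 92348889) encodes IP-10, an interferon-induced ligand of Cxcr3. It had 0 and 30 counts in MON and 20 and 18 in NEU. The NEU libraries were alike, whereas the MON libraries lay on either side of them. The log2 fold change was -0.61 ± 1.72 with an edgeR adjusted p of 0.808. Without MON replicate 1 it was 0.37, and without MON replicate 2 it was -7.37, a value fitted against 0 counts.

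Cxcl3 (ENSMUSG00000029379.9; chromosome 5, 90786103 to 90789600), another ligand of Cxcr2, had 0 and 1 counts in MON, against 3 and 1 in NEU. It was too low in all 4 libraries for a difference to be detected at this depth, and it did not pass the filter. The ratio of summed counts was 0.20 with a 95% counting interval of 0.0041 to 2.06. By counting error alone, the 0 counts in MON replicate 1 allow a level of up to 0.115 CPM, taken as 3 counts. That limit leaves out the spread between libraries.

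Ccl6 and Ccl9 are neighbouring chemokine genes of chromosome 11. Cxcl2 and Cxcl3 lie in the same region of chromosome 5, with Cxcl15 and Cxcl1 between them. Since the genes of each pair differed in level or in fold change, the sequence upstream of these 4 genes is shown. Of the 10 ligands, 6 had a window in the promoter table from RefSeq (GRCm38.p6, the assembly also called mm10): Ccl3, Ccl6, Ccl9, Cxcl2, Cxcl3 and Cxcl10. The 150 bases before each gene's annotated start follow, 5′ to 3′ on the strand of the gene. Where the RefSeq and GENCODE starts differ, the earlier was taken as the start, as for Cxcl3, whose stretch ends at 90786100. Capitals mark the longest run of letters that the 2 genes of a pair share. The positions are chr11:83578637-83578786 on the minus strand for Ccl9, chr11:83593088-83593237 on the minus strand for Ccl6, chr5:90903721-90903870 on the plus strand for Cxcl2 and chr5:90785951-90786100 on the plus strand for Cxcl3.
Ccl9: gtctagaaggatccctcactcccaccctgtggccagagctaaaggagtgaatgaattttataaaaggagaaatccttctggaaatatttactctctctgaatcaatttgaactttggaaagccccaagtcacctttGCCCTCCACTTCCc
Ccl6: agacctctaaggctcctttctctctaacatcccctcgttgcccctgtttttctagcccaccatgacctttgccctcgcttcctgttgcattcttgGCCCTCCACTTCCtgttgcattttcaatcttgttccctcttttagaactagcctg
Cxcl2: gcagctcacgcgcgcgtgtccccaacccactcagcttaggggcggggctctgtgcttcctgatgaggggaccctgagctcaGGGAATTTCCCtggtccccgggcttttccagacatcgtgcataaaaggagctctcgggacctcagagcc
Cxcl3: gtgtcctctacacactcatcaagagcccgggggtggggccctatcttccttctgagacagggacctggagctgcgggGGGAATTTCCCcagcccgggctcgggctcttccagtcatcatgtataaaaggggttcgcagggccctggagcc

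Cxcl2 and Cxcl3 shared a run of 11 bases (GGGAATTTCCC) that has the form of an NF-kappaB site and begins 69 bases before the start of Cxcl2 and 73 before that of Cxcl3. Searched on both strands, this run was in 14 of all 32851 promoter windows (0.0426%), each taken as the 250 bases before the RefSeq start. The stretches were identical at 103 of 166 aligned columns (62.0%). Cxcl2 had 372 to 718 counts in each library and Cxcl3 at most 3.

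Ccl9 and Ccl6 shared a run of 13 bases (GCCCTCCACTTCC), which begins 14 bases before the start of Ccl9 and 55 before that of Ccl6 and was in 5 of the 32851 windows (0.0152%). Their stretches were identical at 74 of 163 aligned columns (45.4%). For neither pair was the identity of unrelated stretches worked out as a comparison. Both runs were picked from these sequences as the longest shared. Runs of such length are in few windows whatever their letters, so the shares of windows do not measure specificity. In the 250 bases before the RefSeq start, Ccl9 held 3 matches to a TATA box (TATAAA, both strands, of which 2 overlap) and 0 to the core of an Ets or PU.1 site (AGGAAG, both strands). Ccl6 held 0 matches to the TATA box and 2 to the Ets core. Cxcl2 held 0 and 1, Cxcl3 held 1 and 2, and Ccl3 and Cxcl10 held 0 of either. No relation of these matches to the levels or fold changes was tested. Of all windows, 12.4% held the TATA box and 29.5% the Ets core. A match describes the letters only and is not evidence of binding.

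The 5 CC ligands called higher in MON are consecutive chemokine genes of chromosome 11, in the order Ccl5, Ccl9, Ccl6, Ccl3 and Ccl4, within 139 kb (83525778 to 83664683). Ccl6, with the smallest fold change of the 5, is the middle gene, and 9246 bases separate it from Ccl9. The fold changes of its neighbours in that order were 11.6 for Ccl9 and 24.0 for Ccl3, and the intervals of these do not overlap the 1.06 to 1.51 of Ccl6. Ccl3 and Ccl4 are 13229 bases apart on opposite strands and were at 155 and 162 CPM in MON, against 6.44 and 3.08 CPM in NEU. Ccl2 and Cxcl16 lie elsewhere on chromosome 11 and were low in all libraries.

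**Figure D3:**
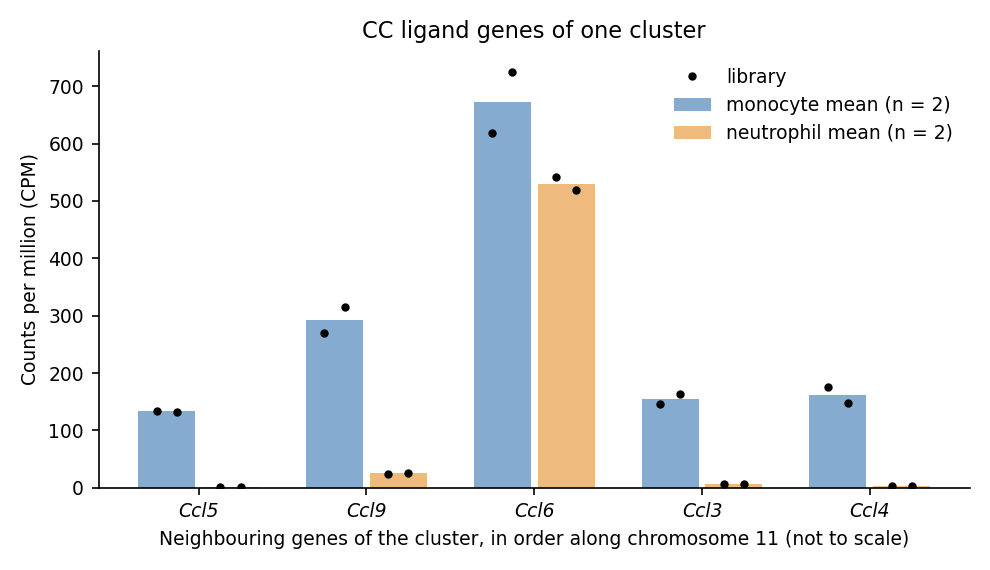
Mean CPM (bars) and single libraries (dots) of 5 neighbouring CC ligand genes, in their order along chromosome 11, with MON left of NEU for each gene. Ccl6 is the only gene of the 5 with a NEU bar near the height of its MON bar.

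Levels of different ligands were compared in TPM. The 10 ligands summed to 387.8 and 366.9 TPM in MON and to 115.8 and 107.8 TPM in NEU. Ccl6 made up 30.5% and 33.9% of that sum in MON, and 89.2% and 87.1% in NEU. Without Ccl6 the sums were 269.5 and 242.5 TPM in MON, against 12.4 and 13.9 TPM in NEU. The ligand RNA of NEU was thus mostly that of a single gene, and the ligand RNA of MON was spread over 5 genes.

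In MON the order by TPM was Ccl6 (118 and 124), Ccl5 (84.6 and 73.7), Ccl4 (84.4 and 63.1), Ccl3 (57.6 and 57.2), Ccl9 (36.9 and 41.3) and Cxcl2 (5.07 and 6.67). Of these neighbours, Ccl5 and Ccl4 overlapped between libraries and the others did not. In NEU the order was Ccl6 (103 and 93.9), Cxcl2 (4.33 and 4.39), Ccl9 (2.62 and 4.26), Ccl3 (2.22 and 2.41), Ccl4 (1.36 and 1.33) and Ccl5 (1.32 and 1.15). The NEU libraries of neighbours did not overlap, but apart from Ccl6 some differences were small beside the estimation error of a library. The 95% credible intervals that RSEM gives for Ccl9 and Ccl3 in NEU replicate 1 overlapped (1.93 to 3.38 and 1.82 to 2.58 TPM), as did those of Cxcl2 and Ccl9 in NEU replicate 2 (3.92 to 4.79 and 3.35 to 5.13 TPM). Ccl5 was second in MON and sixth in NEU, and Cxcl2 sixth in MON and second in NEU. By CPM, which is not corrected for length, Ccl9 held rank 2 in all 4 libraries, Ccl5 rank 5 in MON and 6 in NEU, and Cxcl2 rank 6 in MON and 3 in NEU.

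The ratio of Ccl6 to Ccl9 in TPM was 3.20 and 3.01 in MON, against 39.5 and 22.0 in NEU, where the estimated length of Ccl9 differed between the libraries. In CPM that ratio was 2.29 and 2.31 in MON, against 22.2 and 20.1 in NEU. The ratio of Ccl4 to Ccl3 was 1.46 and 1.10 in MON, and 0.613 and 0.552 in NEU. Both ratios were apart between the cell types, without overlap. Taken singly, 75.1% of all tested genes had groups that did not overlap in CPM, and no such share was worked out for ratios.

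**Figure D4:**
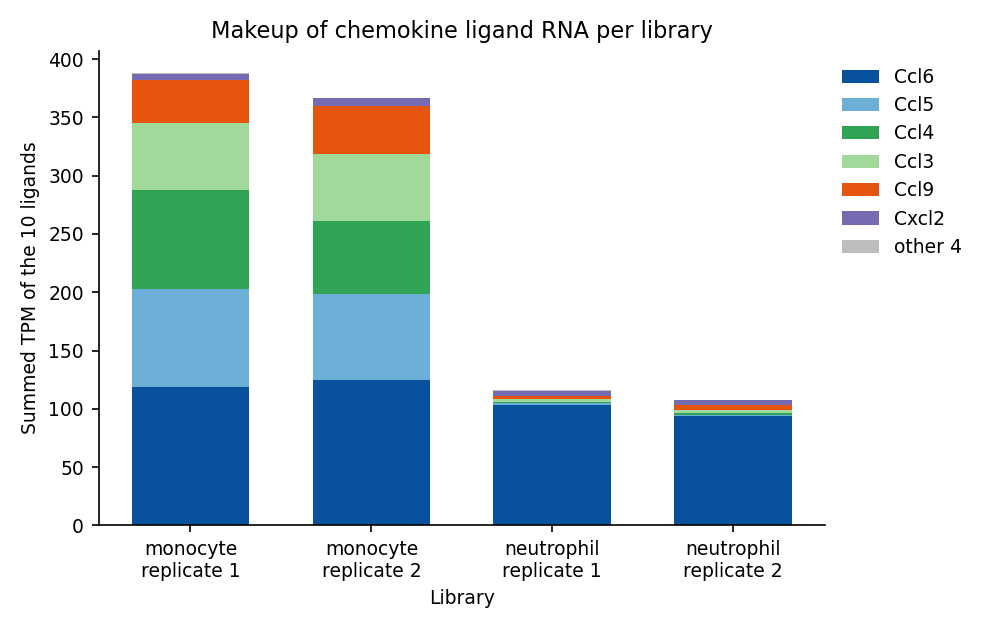
Summed TPM of the 10 ligands in each library, stacked by gene, with the MON libraries on the left. Ccl6 has a similar height in all 4 bars, and the other 9 genes together add 269.5 and 242.5 TPM in MON, against 12.4 and 13.9 TPM in NEU.

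RSEM gave a posterior standard deviation of 0 to the count of each of the 10 ligands in every library, so no reads had been shared out between a ligand gene and a near copy. In the annotation, 4 ligand genes overlap a gene of the other strand. The overlapping genes had 0 counts in all libraries for Ccl2 (Gm17268), and 98 and 16 in MON and 41 and 62 in NEU for Ccl6 (E230016K23Rik). For Cxcl10 (Art3) they were 11 and 33 in MON and 0 and 4 in NEU, and for Cxcl16 (Zmynd15) 0 and 7 in MON and 16 and 12 in NEU. Whether the counting used strand is not stated in the sources used here, so the low counts of Cxcl10 and Cxcl16 are uncertain to that extent.

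Beyond the 10 ligands, 28 other chemokine ligand genes were listed, and 17 of these had 0 counts in all 4 libraries, among them Ccl7, Ccl8, Ccl12 and Cxcl1. The 10 ligands held 96.8% and 96.3% of the summed ligand TPM in MON, and 89.5% and 88.9% in NEU. Of the others, 5 were tested, and 1 was called higher in MON and 2 higher in NEU. Xcl1, known from NK cells and T cells, had 330 and 335 counts in MON, against 0 and 17 in NEU (log2 4.96 ± 1.09, edgeR adjusted p 0.0161). Ppbp and Pf4, both platelet chemokines of the CXC family, were lower in MON. Ppbp had 221 and 276 counts in MON, against 780 and 797 in NEU (log2 -1.96 ± 0.19, edgeR adjusted p 0.00083). Pf4 had 78 and 67 in MON, against 156 and 138 in NEU (-1.31 ± 0.37, edgeR adjusted p 0.036). Ccl25 had 18 and 97 counts in MON and 34 and 22 in NEU and was not called, and Ccl27a was not called either.

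All 6 receptors listed for these ligands were tested, of which 3 were called higher in MON and 2 higher in NEU. Cxcr2, the receptor of Cxcl2 and Cxcl3, averaged 11.1 ± 2.47 CPM in MON and 1258 ± 28.2 CPM in NEU (log2 -6.82 ± 0.18, edgeR adjusted p 2.44e-05). Ccr1, which binds Ccl3, Ccl5, Ccl6 and Ccl9, was likewise lower in MON, at 26.9 ± 0.86 CPM, than in NEU, at 374 ± 0.41 CPM (-3.80 ± 0.09, edgeR adjusted p 2.17e-05). Ccl3, Ccl5 and Ccl9 were thus far higher in MON, and the gene of this receptor of theirs was higher in NEU. Ccl6 was abundant in both cell types, at 672 CPM in MON and 530 CPM in NEU, and its call was close to the threshold.

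Ccr2, the receptor of Ccl2, was at 368 ± 0.91 CPM in MON and 83.1 ± 5.96 CPM in NEU (2.15 ± 0.09, edgeR adjusted p 5.45e-05). Ccr3, a receptor of Ccl5 known from eosinophils and basophils, was at 169 ± 4.08 CPM in MON and 12.6 ± 0.56 CPM in NEU (3.74 ± 0.11, edgeR adjusted p 2.64e-05). Cxcr3, the receptor of Cxcl10, was outside the naming rule and was chosen after its values were seen. It was also called higher in MON, with 135 and 193 counts there and 37 and 37 in NEU (1.86 ± 0.46, edgeR adjusted p 0.0232). Cxcr6, the receptor of Cxcl16, had 38 and 25 counts in MON, against 74 and 83 in NEU, and was not called (-1.61 ± 0.59, edgeR adjusted p 0.0767).

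**Figure D5:**
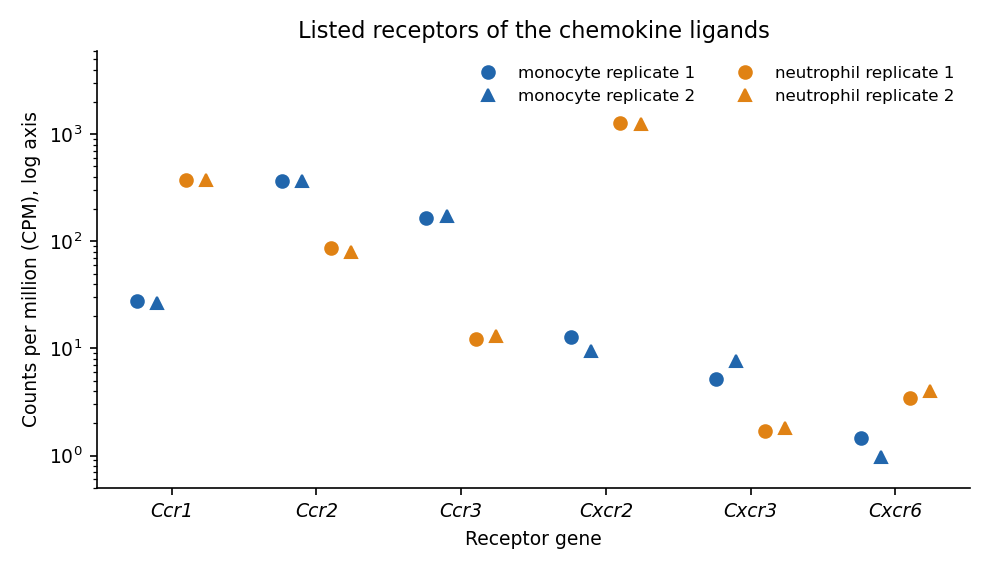
CPM (log axis) in each library of the 6 listed receptor genes, with MON left of NEU for each gene. Ccr1 and Cxcr2 are higher in NEU, at 374 and 1258 CPM on average, and Ccr2, Ccr3 and Cxcr3 are higher in MON.

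Of the 8 other chemokine receptors tested, 1 was called higher in MON and 6 higher in NEU. Cx3cr1, the receptor of fractalkine on monocytes and NK cells, was at 413 ± 16.6 CPM in MON and 19.1 ± 2.47 CPM in NEU (4.43 ± 0.13). Cxcr4, the receptor that retains cells in the marrow, was at 388 ± 28.3 CPM in MON and 613 ± 50.2 CPM in NEU (-0.66 ± 0.10). Cxcr5 and Ccr7, both known from lymphocytes, had log2 values of -3.18 ± 0.16 and -2.32 ± 0.11. Ccr4 was not called. Ccrl2, the single tested gene of the atypical and chemokine-binding receptors, was higher in MON (1.97 ± 0.17). For these genes edgeR's adjusted p lay under the threshold of 0.05 where a call is stated.

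Among 6 proteases known to act on chemokines, 3 were called higher in MON and 3 higher in NEU. Adam17, a sheddase, was at 186 ± 11.3 CPM in MON and 110 ± 2.98 CPM in NEU (0.75 ± 0.09). Adam10, the sheddase of Cxcl16, was chosen after its values were seen and had a log2 value of 0.54 ± 0.11. Mmp9, a gelatinase of neutrophil granules, was at 14.8 ± 2.6 CPM in MON and 556 ± 7.59 CPM in NEU (-5.23 ± 0.15). Mmp8, the neutrophil collagenase, had a log2 value of -7.16 ± 0.13, and Dpp4, which trims the ends of several chemokines, one of -1.46 ± 0.12.

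Of 13 regulators of chemokine genes, in NF-kappaB signalling or mRNA decay, 6 were called higher in MON, 5 higher in NEU and 2 were not called. Tnfaip3, an inhibitor of NF-kappaB that is itself an NF-kappaB target, had 523 and 684 CPM in MON, against 96.1 and 94.0 CPM in NEU (2.67 ± 0.15). Nfkbiz, a nuclear member of the I-kappaB family, was also higher in MON (1.2 ± 0.09), as was Zfp36l2 (0.56 ± 0.09), which binds AU-rich mRNA. Zfp36, which encodes tristetraprolin and promotes the decay of AU-rich mRNA, was lower in MON, at 145 ± 9.31 CPM, than in NEU, at 434 ± 39.3 CPM (-1.58 ± 0.10). Elavl1 and Relb were the genes not called. The median log2 value over the 13 was -0.15, where that of all tested genes was -0.06.

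Among the tested markers of other blood cells, all those of NK cells and basophils were higher in MON. All 12 NK cell markers were called higher in MON, and their summed level was 2994 and 3033 CPM in MON, against 40.2 and 40.9 CPM in NEU. Gzma, a protease of NK cell granules, was at 1428 and 1269 CPM in MON and at 10.7 and 11.1 CPM in NEU, and Ncr1, which defines NK cells, at 233 and 247 CPM in MON and at 4.58 and 1.80 CPM in NEU. Of 8 basophil markers, 7 were tested and all of these were higher in MON, with summed levels of 165.7 and 167.2 CPM in MON, against 8.55 and 7.42 CPM in NEU. Ms4a2 and Cd200r3 had the highest levels among them. Mcpt8, which defines basophils and was chosen after its values were seen, had 90 and 255 counts in MON and 0 in both NEU libraries. NK cells are known to transcribe Ccl3, Ccl4, Ccl5 and Xcl1, and basophils Ccl3. The part of these cells in the levels of the ligands was not tested.

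The T cell markers were divided, with 2 of 10 called higher in MON and 7 higher in NEU, and sums of 112.6 and 131.8 CPM in MON and 150.7 and 162.3 CPM in NEU. All 9 B cell markers were higher in NEU, at 720.9 and 835.8 CPM in MON, against 4687 and 4514 CPM in NEU. Of 6 eosinophil markers, 3 were tested and 0 were called, with sums of 37.6 and 35.2 CPM in MON and 38.6 and 42.2 CPM in NEU. Of 8 platelet markers, which include Ppbp and Pf4, 4 were higher in NEU and 0 in MON. Their part in the ligand levels was not tested.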

How the data were processed

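Total RNA of 2 monocyte and 2 neutrophil libraries was analysed. The ribosomal RNA had been depleted, and the libraries were made with a stranded random-primed kit and PCR, without molecular identifiers, so intervals and floors cover counting error only. The authors converted the reads with bcl2fastq, aligned them to mm10 with STAR and deposited expected counts and TPM per gene from RSEM. The deposited files also give effective lengths, posterior means and credible intervals, which were used as described. Identifiers were matched without version to GENCODE on mm10, and 42462 of 43346 (98.0%) had a name.

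Expected counts were rounded, filtered with filterByExpr and scaled by TMM, and cell types were compared with the edgeR quasi-likelihood F test (edgeR 4.0.16, R 4.3.3), with Benjamini-Hochberg adjustment over 14309 genes and calls under 0.05. CPM is the expected count scaled to a library total of 1000000. Fold changes are monocyte over neutrophil, with the standard error derived from the F value. The fit was also run on simulated counts that had the same spread in both cell types. That setting lacks the unequal spread of these libraries (45.6% in monocytes, 14.7% in neutrophils), so no conclusion is drawn from it. With 2 libraries against 2, a permutation test cannot go below p = 0.333, so none was used.

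The members and lists were chosen with earlier results of these data known, and the shared runs and motifs after the sequences were seen. Named genes were all 10 ligands and every gene of a pathway list with at most 5 tested. In the other pathway lists they were the 4 called genes with the highest CPM in their higher group. The 2 genes not called with the highest CPM were named as well. Of the NK cell and basophil marker lists, the 2 highest were named. Ly6c2 and Retnlg were named as the exceptions in the monocyte and neutrophil marker lists, whose highest genes are not named. Ly6g and Xist were named as checks of the labels, and other genes outside this rule were chosen after their values were seen. Alternatives were DESeq2 1.42.0 size factors and test, upper-quartile factors, library size alone, other filters, limma 3.58.1 on log2 TPM with pseudocounts of 1 and 0.1, an effective length offset, leaving out abundant genes, testing against 2-fold, and fits without each library in turn. A further receptor gene is not reported here.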

Additional observations from a re-analysis of the deposited data

How the results depend on the processing

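The calls of Ccl3, Ccl4, Ccl5 and Ccl9 held under all 17 alternatives, with log2 fold changes of 4.14 to 4.68, 4.98 to 5.81, 5.16 to 5.97 and 3.20 to 3.63. With 1 library left out, where the single library left is taken to vary as the intact pair does, the ranges were 4.46 to 4.68 for Ccl3, 5.57 to 5.81 for Ccl4, 5.83 to 5.97 for Ccl5, 0.20 to 0.44 for Ccl6, 3.40 to 3.63 for Ccl9, 0.074 to 0.64 for Cxcl2, -7.37 to 0.37 for Cxcl10 and 2.54 to 5.08 for Cxcl16. In these fits 4 to 7 ligands were called higher in monocytes and 0 to 1 higher in neutrophils. The 1 was Cxcl10 without monocyte replicate 2, and its sign reversed to 0.37 without monocyte replicate 1. Of all genes, 1984 to 3987 were then called higher in monocytes and 1810 to 4675 higher in neutrophils. Ccl6 was no longer called with upper-quartile factors (0.30), limma on log2(TPM + 1) (0.30) or log2(TPM + 0.1) (0.30), an effective length offset (0.28) or a test against a 2-fold change (0.34). Cxcl16 was called with the CPM filter (3.34), DESeq2 (3.37), limma on log2(TPM + 1) (0.35) and log2(TPM + 0.1) (1.70). Testing against 2-fold, which asks for a larger difference, gave 934 calls on the monocyte side and 1055 on the neutrophil side. The mean share of Ccl6 in the ligand sum was 32.2% in monocytes and 88.2% in neutrophils. It was 46.6% in monocytes and 90.4% in neutrophils in CPM in place of TPM, and 78.7% in neutrophils with all 38 ligands in the sum. For Ccl6, Cxcl2, Cxcl10 and Cxcl16 the cause was not tested. No paired analysis was possible because the labels number the libraries differently in the 2 cell types. Low counts limit Ccl2, Cxcl3, Cxcl10 and Cxcl16, which had at most 50 counts in any library. Ccl2 (38 and 0) and Cxcl10 (0 and 30) also differed between the monocyte libraries, whose totals were 26076261 and 25538433. Genes with any count numbered 14957 and 15111 in monocytes, against 18017 and 18041 in neutrophils. The reason for this was not tested.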

Other observations

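Some chemokine genes had counts in a single monocyte library, and they are given as values chosen after they were seen. Ackr3, an atypical receptor, had 0 and 24 counts in monocytes and 0 in both neutrophil libraries. Ccl27a had 0 and 29 counts in monocytes, against 26 and 14.8 in neutrophils. Of the ligands described above, Ccl2 had 38 and 0 counts in monocytes and Cxcl10 had 0 and 30. Low counts that differ in this way between the libraries of a cell type give no level for it. Ccl22, a ligand known from dendritic cells, had 13 and 3 counts in monocytes, against 0 in both neutrophil libraries. Cxcl5, a ligand of Cxcr2, had 0 counts in both monocyte libraries, against 10 and 3 in neutrophils.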
